A study of Homo sapiens with 2 samples.

Results

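KMT2D peaks were described around 5 genes grouped as regulators of quiescence, the resting state of cells: the zinc-finger transcription factor genes KLF2, KLF6 and KLF13, and the RNA-binding protein genes ZFP36L1 and ZFP36L2. The members were the peaks whose highest point fell in a fixed window around each gene, on hg19: 16.38 to 16.49 Mb on chromosome 19 for KLF2, 3.77 to 3.88 Mb on chromosome 10 for KLF6, 31.57 to 31.78 Mb on chromosome 15 for KLF13, 69.2 to 69.32 Mb on chromosome 14 for ZFP36L1 and 43.4 to 43.51 Mb on chromosome 2 for ZFP36L2. Of 24772 peaks listed on chromosomes 1 to 22 and X, 49 were members: 8 at KLF2, 4 at KLF6, 19 at KLF13, 10 at ZFP36L1 and 8 at ZFP36L2. The peaks came from 1 ChIP-seq library of OCI-LY7, an established tumour line that the labels give as GCB-DLBCL (diffuse large B-cell lymphoma of the germinal centre type) with genotype wt, precipitated with an antibody raised against the N-terminus of KMT2D. A library of the same line without antibody served as input, and its own values were not analysed here. With 1 ChIP library no replicate spread exists, the depth is unknown, and intervals cover counting error over peaks only. A stretch without a listed peak therefore cannot be called unbound.

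KMT2D, also called MLL4, is a methyltransferase of histone H3 that works mainly at enhancers, and its gene is often inactivated in B-cell lymphoma. KLF factors bind GC-rich and CACCC-containing DNA. KLF2 is known for keeping lymphocytes quiescent and for controlling their trafficking, KLF6 has been described as a tumour suppressor, and KLF13 is known as a regulator of CCL5 in T cells. ZFP36L1 and ZFP36L2 belong to the tristetraprolin family, which binds AU-rich elements in messenger RNA and brings about its decay, and in mouse they are known to keep B-cell precursors quiescent.

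In the RefSeq gene order of GRCh38.p14, the nearest protein-coding neighbours are AP1M1 and EPS15L1 for KLF2, PITRM1 and AKR1E2 for KLF6, TRPM1 and OTUD7A for KLF13, RAD51B and ACTN1 for ZFP36L1, and HAAO and THADA for ZFP36L2. No hg19 gene positions were used here, so a peak in a window is a peak near the gene by the window's definition, and which peaks lie on a start site, in the gene body or at a neighbour was not analysed. RefSeq promoter sequence on the other build was found for 4 of the 5 members. The 250 bases before the start of the 3 KLF genes are shown because all 3 hold the GC box, the kind of DNA that KLF factors themselves bind. They lie at chr19:16324576-16324825 (plus strand) for KLF2, chr10:3785210-3785459 (minus strand) for KLF6 and chr15:31326585-31326834 (plus strand) for KLF13, all on GRCh38.p14. Capitals mark matches to GGGCGG or its reverse complement CCGCCC.
KLF2: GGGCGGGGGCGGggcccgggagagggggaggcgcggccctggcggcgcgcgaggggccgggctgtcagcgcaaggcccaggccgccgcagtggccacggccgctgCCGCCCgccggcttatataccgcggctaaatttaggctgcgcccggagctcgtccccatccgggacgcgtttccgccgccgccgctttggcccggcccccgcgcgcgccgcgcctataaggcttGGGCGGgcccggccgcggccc
KLF6: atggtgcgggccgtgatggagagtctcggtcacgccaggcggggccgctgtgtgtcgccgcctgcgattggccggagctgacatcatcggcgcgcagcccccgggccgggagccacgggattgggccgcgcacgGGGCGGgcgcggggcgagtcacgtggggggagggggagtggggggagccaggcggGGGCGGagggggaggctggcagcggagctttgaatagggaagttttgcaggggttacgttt
KLF13: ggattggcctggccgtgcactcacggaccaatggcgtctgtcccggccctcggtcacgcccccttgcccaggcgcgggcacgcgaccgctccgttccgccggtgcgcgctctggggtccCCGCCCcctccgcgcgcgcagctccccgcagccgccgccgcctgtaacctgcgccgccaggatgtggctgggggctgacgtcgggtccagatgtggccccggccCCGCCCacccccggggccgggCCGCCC

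The KLF2 stretch had 4 matches to the GC box, KLF6 had 2 and KLF13 had 3, counting overlapping matches on both strands. The same letters occurred in 42.6% of the 35116 promoters of that table. GC content was 80.0% for KLF2, 72.4% for KLF6 and 78.8% for KLF13, against a median of 58.0% over all promoters. The box was not found in the same 250 bases before either RefSeq start of ZFP36L1, where GC content was 56.4% and 58.4%. CACCC or its reverse complement GGGTG occurred in 54.7% of promoters, with 1 match at KLF13, 1 at the farther ZFP36L1 start and 0 at KLF2 and KLF6. CCAAT or its reverse complement occurred in 32.0% of promoters. It had 2 matches each at KLF6 and KLF13, 1 at the farther ZFP36L1 start and 0 at KLF2 and the nearer ZFP36L1 start. These are matches of letters, and whether KMT2D peaks lie on these stretches was not analysed.

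Peaks were dense in the 5 windows, and their median height was near that of the list. The windows held 74.2 peaks per Mb (exact Poisson 95% interval 54.9 to 98.2), against 8.43 per Mb over the rest of the chromosomes (8.32 to 8.54), which is 8.81 times as many (exact conditional interval 6.51 to 11.6). Bases covered by peaks made up 6.07% of the windows and 0.583% of the rest. The median height, in the authors' units, was 40 for the members (order-statistic interval 29 to 46) and 39 for all other peaks (39 to 40). On the rest of the 5 chromosomes that hold the windows, the median height was 42 (42 to 43). The window's median was below that of the rest of its chromosome at KLF2 (45.5 against 51) and KLF13 (40 against 43.5). It was also below at ZFP36L1 (30.5 against 40) and ZFP36L2 (30.5 against 36), and above at KLF6 (42 against 39). The median width was 598 bp in the windows (390 to 829 bp) and 609 bp elsewhere (601 to 618 bp). The windows thus stood out from the list in how many peaks they held, while the intervals of median height and width overlapped. The windows were drawn around genes, whereas the rest of the chromosomes was taken whole, with or without genes.

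**Figure D1:**
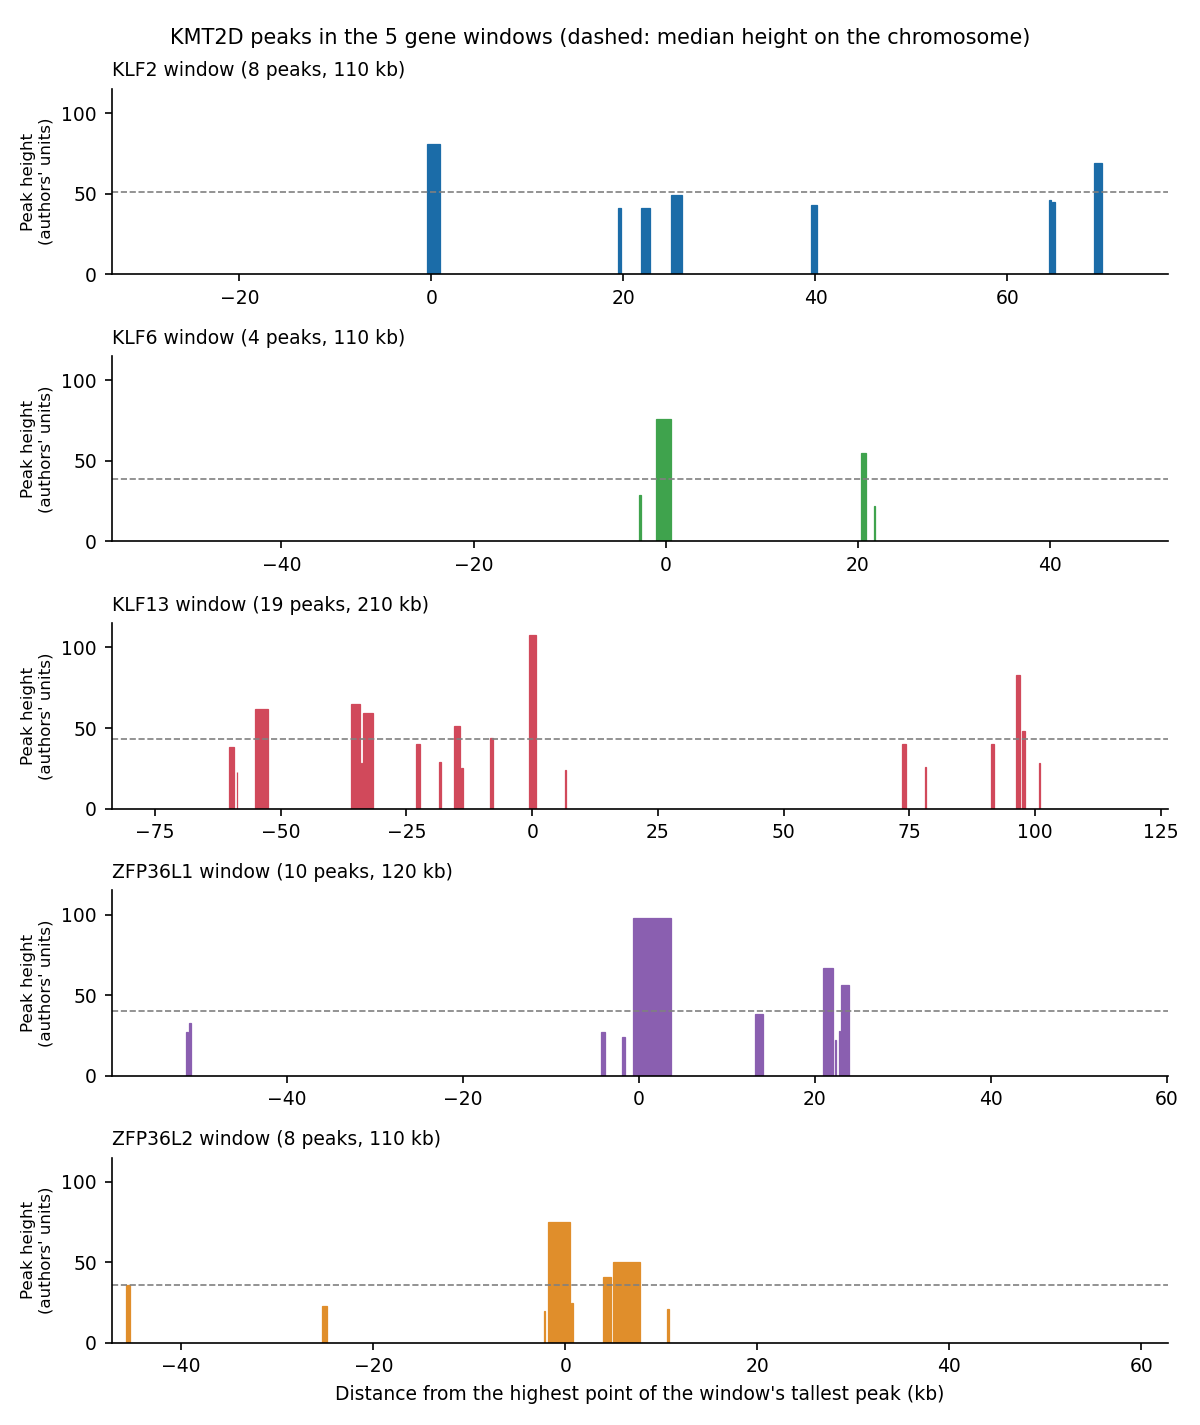
Each panel is 1 gene window, with distance in kb from the highest point of its tallest peak on the x axis and peak height in the authors' units on the y axis. Each bar is 1 listed peak drawn over its full width at its greatest height, and the dashed line is the median height on that chromosome. The KLF13 window holds 19 peaks in several groups, KLF6 holds 4, and the widest bar is the ZFP36L1 peak of 4317 bp.

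Among the transcription factor genes, KLF2 had 8 peaks with heights of 41 to 81. The tallest lay at 16412876 to 16414208, with a height of 81, a width of 1332 bp, a score of 42.5 and a significance value of -48.7. It was a lone peak, 18.5 kb before the next one. In the list, 9.94% of peaks were at least as tall, and on chromosome 19, where peaks are taller, 17.2% were. A group of 3 peaks followed at 16432692 to 16439383, with heights of 41, 41 and 49 and widths of 395, 865 and 1171 bp. A lone peak at 16452838 to 16453436 had a height of 43. The last 3 began at 16477593 and had heights of 46, 45 and 69, of which the tallest, at 16482282 to 16483127, was 845 bp wide. This last group ran on past the window's edge as a cluster of 5 peaks. Thus 6 of the 8 KLF2 peaks stood between 41 and 49, all 6 below the median of 51 for chromosome 19, and 2 stood above it.

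In every KLF2 peak the highest point lay nearer the start than the end, at 16.9 to 43.8% of the way along. Over the list, 56.2% of peaks had their highest point before the midpoint. The count was 1 of 4 at KLF6, 10 of 19 at KLF13, 7 of 10 at ZFP36L1 and 6 of 8 at ZFP36L2, or 65.3% of the 49 members (exact binomial interval 50.4 to 78.3%). Taken over all members, the share was near that of the list.

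KLF6 had the fewest peaks, arranged as 2 pairs. In the first, the tallest peak of the window spanned 3826730 to 3828242, with a height of 76, a width of 1512 bp, a score of 41.1 and a significance value of -54.9. Beside it lay a peak of 164 bp and height 29 at 3824929 to 3825093. Of the peaks on chromosome 10, 9.99% were at least as tall as the larger one. The second pair began after a gap of 19.8 kb. It had a peak of height 55 and 576 bp at 3847996 to 3848572. Its other peak, at 3849378 to 3849505, had a height of 22 and a width of 127 bp. Each pair thus combined a peak above the chromosome's median height of 39 with a small one below it. The stretch free of listed peaks was 127 kb before the pairs and 61.0 kb after them. Of the gaps between neighbouring peaks in the list, 16.9% were at least as long as the former and 28.7% at least as long as the latter.

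KLF13 had the most peaks, in the longest window. Its 19 peaks had heights of 23 to 108 with a median of 40, against a median of 43.5 on the rest of chromosome 15, and widths of 146 to 2557 bp. The tallest, at 31652939 to 31654398, had a height of 108 and a width of 1459 bp, and 2.83% of all listed peaks were at least as tall. The next tallest, at 31749832 to 31750517, had a height of 83 in a width of only 685 bp. This narrower peak had the higher score, 54.9 against 48.6, and the lower significance value, -77.8 against -68.5, so the 2 peaks change places when ranked by the authors' score. The peak next in height, at 31617611 to 31619398, had a height of 65. The widest, at 31598569 to 31601126, measured 2557 bp and reached a height of 62.

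The KLF13 peaks fell into 4 clusters when peaks at most 12.5 kb apart were joined. The largest held 10 peaks over 42.6 kb, from 31617611 to 31660259, and included the tallest peak. Clusters of 10 or more numbered 101 in the whole list, among 4962 clusters of any size. A cluster of 3 peaks lay before it, and clusters of 2 and 4 peaks lay beyond a stretch of 66.9 kb without a listed peak. The peak of height 83 belonged to the cluster of 4, and its highest point lay 96.4 kb from that of the tallest. The window therefore held peaks on both sides of this stretch of 66.9 kb without a listed peak. Which of them lie nearer to the neighbouring gene was not analysed.

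Of the RNA-binding protein genes, ZFP36L1 carried the widest peak of the 5 windows. It ran from 69259195 to 69263512, a width of 4317 bp that 0.0444% of listed peaks equalled or exceeded. Its height was 98, which 4.52% of listed peaks reached, its score was 47.6 and its significance value was -66.6. Its highest point lay at 15.7% of the way from start to end, so most of the peak's width lay on the side of higher coordinates. Before it stood small peaks at 69255647 and 69257954 with heights of 27 and 24, and after it 1 of height 38 and 916 bp at 69273063. A group of 4 began with a peak of height 67 and 1081 bp at 69280879, its highest point 21.6 kb from that of the broad peak. The group ended with a peak of height 56 and 948 bp at 69282870. Between these were peaks of height 22 and 28. All 8 peaks named so far formed 1 cluster of 28.2 kb. A separate pair of small peaks at 69208499 and 69208776, with heights of 27 and 33, lay 46.6 kb before the cluster. The pattern at ZFP36L1 was thus 3 peaks above the chromosome's median of 40 and 7 below it.

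ZFP36L2 had 2 broad peaks close together. One, at 43445501 to 43447718, was 2217 bp wide and the tallest of the window at 75, with a score of 31.4 and a significance value of -43.9. The other, at 43452173 to 43455036, was 2863 bp wide and reached a height of 50. A peak of height 41 and 829 bp lay between them at 43451199, and peaks of height 20, 25 and 21 at 43444987, 43447872 and 43457886 completed a cluster of 6 over 13.0 kb. Peaks covered 48.8% of that span. Outside the cluster, the window had a peak of height 36 at 43401477 and a lone peak of height 23 at 43421912. The score of the tallest ZFP36L2 peak was below the score of 41.1 of the KLF6 peak of nearly the same height, 76.

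Peaks over 2000 bp were thus found at KLF13 (1), ZFP36L1 (1) and ZFP36L2 (2), and at neither KLF2 nor KLF6. They made up 8.16% of the 49 members (exact binomial interval 2.27 to 19.6%) and 2.22% of the list. That is 4 peaks, and the size was chosen with the widths known, so the figures are a description. Both ZFP36L clusters ended before a long stretch free of listed peaks, of 334 kb at ZFP36L1 and 365 kb at ZFP36L2. Of the gaps between neighbouring peaks in the list, 7.0% were at least as long as that at ZFP36L1 and 6.41% at least as long as that at ZFP36L2. The gaps of the list include the short ones inside clusters, whereas a gap that ends a cluster is long by definition. Among gaps between clusters alone both shares would be larger. The gaps of 334 kb and 365 kb lie on the side of higher coordinates, and those on the other side were shorter. Before the first peak of the window, the gap was 52.1 kb at ZFP36L1 (31.5% of gaps at least as long) and 4.24 kb at ZFP36L2 (69.5%).

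**Figure D2:**
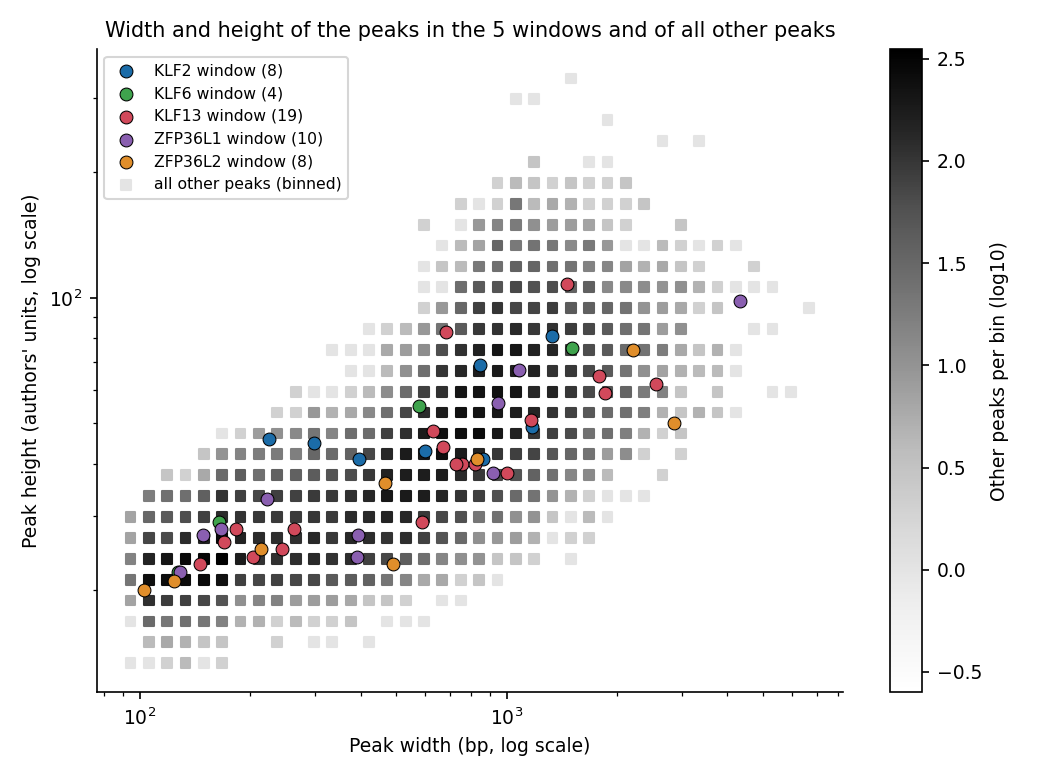
Peak width in bp (x axis, log scale) and height in the authors' units (y axis, log scale) for the 49 peaks of the 5 windows (coloured points) and for all other peaks (grey squares, darker for more peaks per bin). The members spread over the same band as the list, and the ZFP36L1 peak of 4317 bp lies at its wide end.

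Heights of the members ran from 20 to 108, well short of the top of the list. Of the 49 members, 4 belonged to the tallest 10% of the list, which begins at a height of 80 and with ties holds 10.4% of peaks. They were the KLF2 peak of 81, the KLF13 peaks of 108 and 83 and the ZFP36L1 peak of 98. The first outside that limit were the KLF6 peak of 76 and the ZFP36L2 peak of 75. The share was 8.16% (exact binomial interval 2.27 to 19.6%), close to that of the list. Counted on each peak's own chromosome, 4 members were in the tallest 10%, but not the same 4. The KLF6 peak of 76 came in, with 9.99% of peaks on chromosome 10 at least as tall. The KLF2 peak of 81 dropped out, with 17.2% on chromosome 19. In the taller 50% of their own chromosome were 18 of 49. None of the 49 was listed at minus infinity for significance, and the tallest peak of the list reached 320.

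Heights were not the same across windows, although the ranges overlapped. The lowest KLF2 peak, at 41, was higher than the median of the ZFP36L1 and ZFP36L2 windows, 30.5 in each. The lowest height listed was 26 on chromosome 19, 19 on chromosomes 10, 14 and 15, and 17 on chromosome 2. Small peaks such as those of height 20 to 25 at the other 4 genes would therefore fall below any height listed on chromosome 19. With a common minimum height of 26 on all chromosomes, KLF2 kept all 8 peaks and the share of tiles (consecutive stretches of the window's length along all chromosomes) with at least as many peaks was 1.26%, against 2.09% without that minimum.

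**Figure D3:**
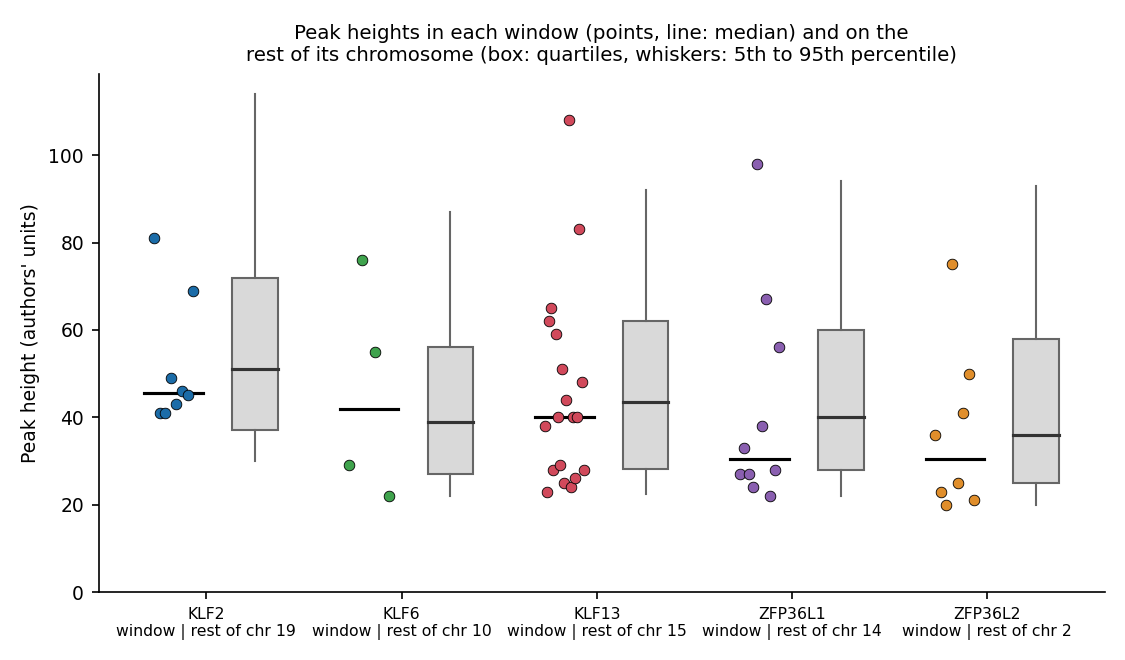
Peak height in the authors' units for each window (points, with the median as a black line) and for the rest of its chromosome (box for the quartiles, whiskers from the 5th to the 95th percentile). The medians run from 30.5 at ZFP36L1 and ZFP36L2 to 45.5 at KLF2, and the points of each window overlap the box of its chromosome.

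Set beside all tiles of the same length over chromosomes 1 to 22 and X, the windows ranked from the fullest 0.494% to the fullest 8.1%. At least 19 peaks were found in 0.494% of 210 kb tiles (KLF13), and at least 10 in 1.31% of 120 kb tiles (ZFP36L1). For 110 kb tiles, 2.09% held at least 8 peaks, the number at KLF2 and at ZFP36L2, and 8.1% held at least 4, the number at KLF6. The median tile held 0 peaks at each length. Among tiles that held a peak, a comparison chosen after seeing the data, the shares were 1.09% for KLF13, 3.74% for ZFP36L1, 6.26% for KLF2 and ZFP36L2 and 24.3% for KLF6. No test was made of these places, since the windows were proposed with results of this list known.

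The order changed with the chromosome taken into account. On chromosome 19, 9.74% of tiles held at least 8 peaks, whereas on chromosome 2 only 1.36% did. KLF2 had 72.7 peaks per Mb against 26.6 on the rest of chromosome 19, a ratio of 2.73 (exact conditional interval 1.18 to 5.4). ZFP36L2 had 72.7 peaks per Mb as well, against 7.04 on the rest of chromosome 2, a ratio of 10.3 (4.45 to 20.4). The ratio was 10.1 (6.06 to 15.9) for KLF13, 8.87 (4.24 to 16.4) for ZFP36L1 and 4.73 (1.29 to 12.1) for KLF6. These intervals take neighbouring peaks as independent counts, which clustered peaks are not, so they are too narrow and the ratios are given as a description.

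By bases covered, the windows ranked higher than by peak number at 4 of the 5 genes among tiles of all chromosomes. As much as the 15924 bp covered at KLF13 was found in 0.279% of tiles, and as much as the 8713 bp at ZFP36L1 in 0.708%. For ZFP36L2, with 7305 bp, the share was 0.938%, and for KLF2, with 5729 bp, it was 1.76%. KLF6, with 2379 bp, had a share of 8.14%, near its share by peak number. By the tallest peak, all 5 lay closer to the middle of the tiles. A peak as tall was found in 3.93% of tiles for ZFP36L1, 4.28% for KLF13, 7.16% for KLF2, 8.79% for KLF6 and 9.09% for ZFP36L2. Against tiles of the own chromosome only, KLF13 ranked lower by bases covered (0.528%) than by peak number (0.264%). ZFP36L1 had 0.694% by both. The share was smaller by bases covered at KLF2 (6.18% against 9.74%), KLF6 (6.93% against 7.1%) and ZFP36L2 (0.634% against 1.36%).

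**Figure D4:**
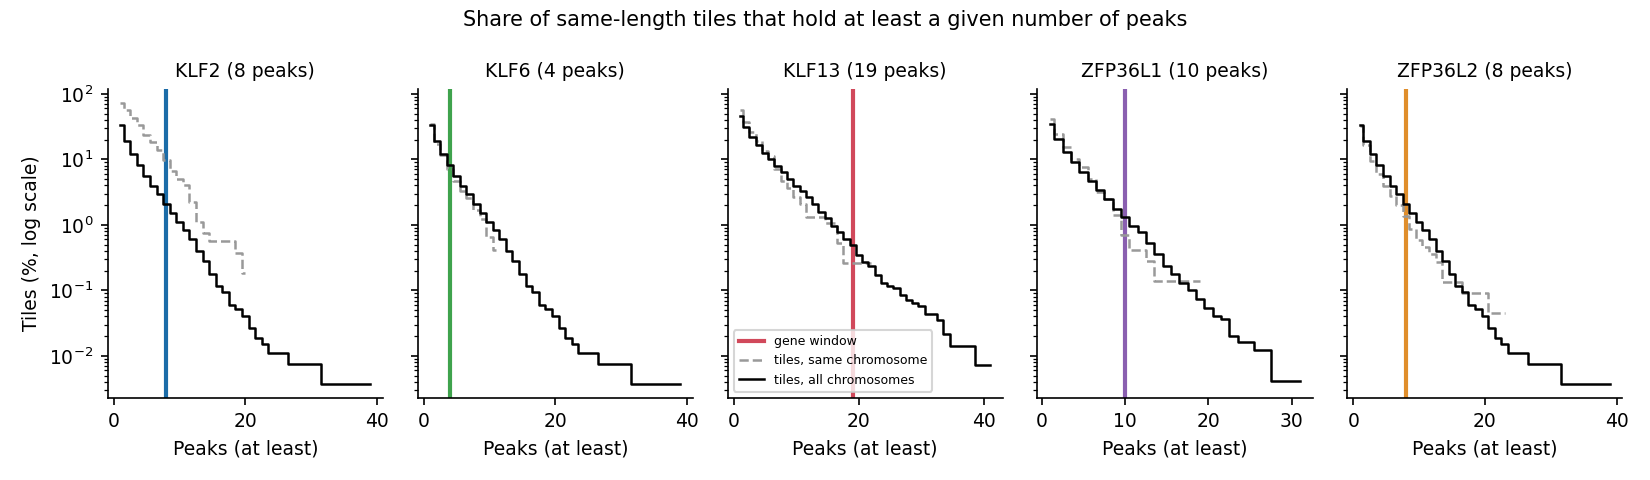
For each gene, the share of same-length tiles in percent (y axis, log scale) that hold at least the number of peaks on the x axis, over all chromosomes (black) and over the gene's own chromosome (grey dashes); the coloured line marks the gene's window. KLF2 meets the black curve at 2.09% and the dashed one at 9.74%. At KLF6, KLF13, ZFP36L1 and ZFP36L2 the dashed curve lies lower at the window's count, at 7.1%, 0.264%, 0.694% and 1.36%. The 0.264% is a share of 379 tiles on chromosome 15.

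Nearly all members had a neighbour. Within 12.5 kb of another peak lay 46 of 49 (93.9%; exact binomial interval 83.1 to 98.7%), against 63.4% of the list. The 3 lone peaks were 2 at KLF2, including its tallest, and 1 at ZFP36L2. Clusters are more frequent where peaks are dense, so this share and the density of the windows are not separate observations.

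Counts depended on which small peaks entered. Among the highest-scoring 50% of the list were 3 of 10 peaks at ZFP36L1 and 2 of 8 at ZFP36L2. At the KLF genes these were 6 of 8 at KLF2, 2 of 4 at KLF6 and 12 of 19 at KLF13. Over the 5 windows it was 25 of 49, near the 50% of the list. The share of tiles with as many such peaks was then 5.58% for ZFP36L1 and 10.5% for ZFP36L2, against 0.861% for KLF2, 10.5% for KLF6 and 0.237% for KLF13. At a minimum height of 26, the peaks kept were 8 of 8 at KLF2, 3 of 4 at KLF6, 16 of 19 at KLF13, 8 of 10 at ZFP36L1 and 4 of 8 at ZFP36L2. Shares of tiles at that height were 9.19% for KLF6, 0.503% for KLF13, 1.48% for ZFP36L1 and 5.87% for ZFP36L2. When peaks under 500 bp apart were joined, ZFP36L1 had 6 peaks in place of 10 and a share of 3.19%, and ZFP36L2 had 5 in place of 8 and a share of 4.09%. The ends of the windows mattered for KLF2 and KLF13. At KLF2, 5 of 8 peaks remained when both ends were moved in by 20 kb. A peak of height 102 at 16370258 to 16371263 lay 9.33 kb before the KLF2 window, so the tallest peak there depended on that edge. The nearest peaks inside and outside that edge had heights of 81 and 49. At the other genes, the peaks just inside and just outside each edge had heights of 20 to 77. Farther out at KLF13, a peak of height 86 and 2508 bp lay 11.3 kb before the window. Another, of height 71 and 1825 bp, lay 13.7 kb before it. The peak of 86 was taller than the next tallest inside that window, at 83. With both ends moved out by 20 kb, KLF13 had 23 peaks in place of 19.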

How the data were processed

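The authors deposited 1 list of called peaks for the KMT2D library, without a header. The build is hg19 and the tool named is CASAVA 1.8.2, per the submitters' processing notes; which aligner, caller, threshold and input correction were applied is not given in the sources used here. Columns were read from their values: width equalled end minus start in all 24824 rows (tolerance 0 bp). The deposited signal column holds whole numbers and is called height; whether it was normalized is not stated. The deposited score is positive and its scale is not stated; the significance value is negative and looks like the log10 of a p-value. A deposited percent column gives the place of the highest point along the peak. These are the authors' values and describe or rank peaks within this list only. Whether positions count from 0 or 1 is not stated.

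All autosomal and X peaks entered, and 52 on Y were left out. Members and lists were chosen with earlier results of these data known. In each window the tallest peak was described in full, with the next tallest and the widest; windows of at most 10 peaks were given whole. Tiles of each window's length spanned every chromosome between its outermost peaks, the windows' own regions included. Clusters joined peaks at most 12.5 kb apart. Medians have order-statistic, shares exact binomial and densities exact Poisson intervals, at 95%. The design allowed no test. Other KLF, ZFP36 and quiescence genes had been planned for comparison and were not analysed, as that needs hg19 gene positions. Functions were tested on simulated data. Software was scipy 1.17.1, pandas 2.3.3, matplotlib 3.10.9 and numpy 2.4.6 under Python 3.11.15.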

Additional observations from a re-analysis of the deposited data

How the results depend on the processing

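In the absence of replicates, an alternative was read as a move where it fell outside the 95% counting interval, for peak numbers, differed by over 1.5 times, or, for the height of a tallest peak, differed at all. Of 95 alternative values for the 5 windows together and for their tallest peaks, 88 stayed and 7 moved. Some of the 88 could not have moved. The common minimum height lay below the tallest peak of every window, so it could not change the height of any tallest peak. The tallest peak of each window was also among the highest-scoring 50% of the list. The count of 88 is therefore not a measure of how stable the results are. Keeping the highest-scoring 50% of peaks gave 25 members in place of 49, 37.9 peaks per Mb, a median height of 55, a median width of 1005 bp and 80.0% of members in clusters; fewer, higher peaks follow from that construction. Joining peaks up to 25 kb apart put 100% in clusters, and a longer distance can only raise that share. Windows lengthened by 20 kb at each end took in a KLF2 neighbour of height 102. The ratio of density to the rest ran from 7.82 (peaks under 500 bp apart merged) to 11.1 (windows 20 kb shorter at each end), with 10.4 in covered bases. Of 60 values for single windows, 24 stayed and 36 moved. No paired analysis was possible because there was 1 ChIP library and 1 list. Depth is unknown and limits which regions are listed.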
